A study of Mus musculus with 6 samples.

Results

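Transcripts of 9 genes that mark the formative and primed epiblast, Fgf5, Otx2, Pou3f1, Zic2, Zic5, Sox3, Tcf15, Sall2 and Utf1, were examined in mouse embryonic stem cells (mESCs) without DNA methyltransferases. They are 9 of the 53390 genes to which the deposited transcripts belong in the GENCODE M21 annotation. The cells, called TKO, carry knockouts of Dnmt1, Dnmt3a and Dnmt3b in the background of J1, a male line of the 129S4/SvJae strain, and both groups compared carry all 3 knockouts. The TKO-serum group (3 libraries) was cultured with 15% fetal calf serum and LIF at 500 U/ml. The TKO-2i group (3 libraries) was cultured in the serum-free medium N2B27 with the MEK inhibitor PD0325901 at 1 µM, the GSK3 inhibitor CHIR99021 at 3 µM and LIF at 1000 U/ml, for 14 days by the study's methods, which also place the cells on gelatin without feeder cells. Basal medium, serum, inhibitors and LIF dose change together between the groups and cannot be told apart, all libraries come from 1 line, and cells with DNA methyltransferases were not analysed here. By the study's methods, libraries were sequenced in pools on more than 1 flow cell. The pool of each library is not given in the sources used here, so whether pool and medium coincide is not known.

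The pluripotent epiblast passes through successive states in the embryo. In the naïve state, which 2i maintains by blocking MEK and GSK3, cells express factors such as Tfcp2l1 and Klf4, and FGF signalling through MEK and ERK moves cells on to the formative and then the primed state of the epiblast after implantation. Otx2, Pou3f1 and Fgf5 are induced during that passage, and Zic, Sox and Sall family genes of the later epiblast continue into the early nervous system.

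Poly(A)-selected RNA was sequenced from libraries of 500 ng of RNA, and the labels call the 3 libraries of each group biological replicates, without saying whether they are separate cultures. The depth, as the sum of estimated counts, was 46228700, 44180642 and 43896549 for the TKO-2i libraries, numbered by replicate, against 38274042, 51932739 and 44827609 for those of TKO-serum; values below follow this order of replicates. Levels are given as TPM, a share of transcripts that is scaled for transcript length and allows genes to be compared, and differences were tested on counts with edgeR's quasi-likelihood test over 18177 genes, with Benjamini-Hochberg adjustment. A log2 fold change is that of TKO-2i over TKO-serum with its standard error (SE), and a gene is said to fall or rise where its adjusted p is under 0.05. CPM is a count relative to the normalized library size, without length, and 3 counts, taken as the smallest level a library can show, stand for 0.0564 to 0.0778 CPM. That floor covers counting error only. In bulk RNA, fewer cells that express a gene and less RNA per cell cannot be told apart.

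The targeted genes were still transcribed in all libraries. Dnmt1 had 29.1, 34.6 and 29.3 TPM in the TKO-2i replicates and 25.7, 28.6 and 27.9 TPM in the TKO-serum replicates. Dnmt3a had 4.3, 5.19 and 4.54 TPM in TKO-2i and 21.3, 23.0 and 22.7 TPM in TKO-serum, and Dnmt3b had 6.71, 9.53 and 8.49 TPM in TKO-2i and 18.8, 20.9 and 20.7 TPM in TKO-serum. Both groups carry the knockouts and the values cover whole transcripts, so these levels do not show the deletions. Pou5f1, the core pluripotency gene of mESCs, had 1057.0, 982.1 and 1011.6 TPM in TKO-2i and 1248.8, 1248.8 and 1252.8 TPM in TKO-serum, lower in TKO-2i without overlap in TPM, while its CPM values overlap.

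All 9 genes passed the filter on low counts, and all 9 were lower in TKO-2i than in TKO-serum at an adjusted p under 0.05, against 30.6% of all tested genes that were lower at this threshold. The call of Zic2 was lost when 1 library other than TKO-2i replicate 1 was left out, or with no filter on low counts, which leaves 8 of the 9. None was higher, against 31.9% of tested genes that were, and 62.5% of tested genes passed the threshold in either direction. All 9 were lower in each TKO-2i library than in any TKO-serum library in CPM, which held for 33.5% of tested genes. Fgf5, Otx2, Pou3f1 and Tcf15 fell by a log2 fold change beyond 2, as 7.10% of tested genes did (9.19% in either direction). Log2 fold changes of these genes ran from -4.62 to -0.14 and had a median of -1.33, beside 0.01 over all tested genes. These counts are a description and not a test of the genes as a group.

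**Figure D1:**
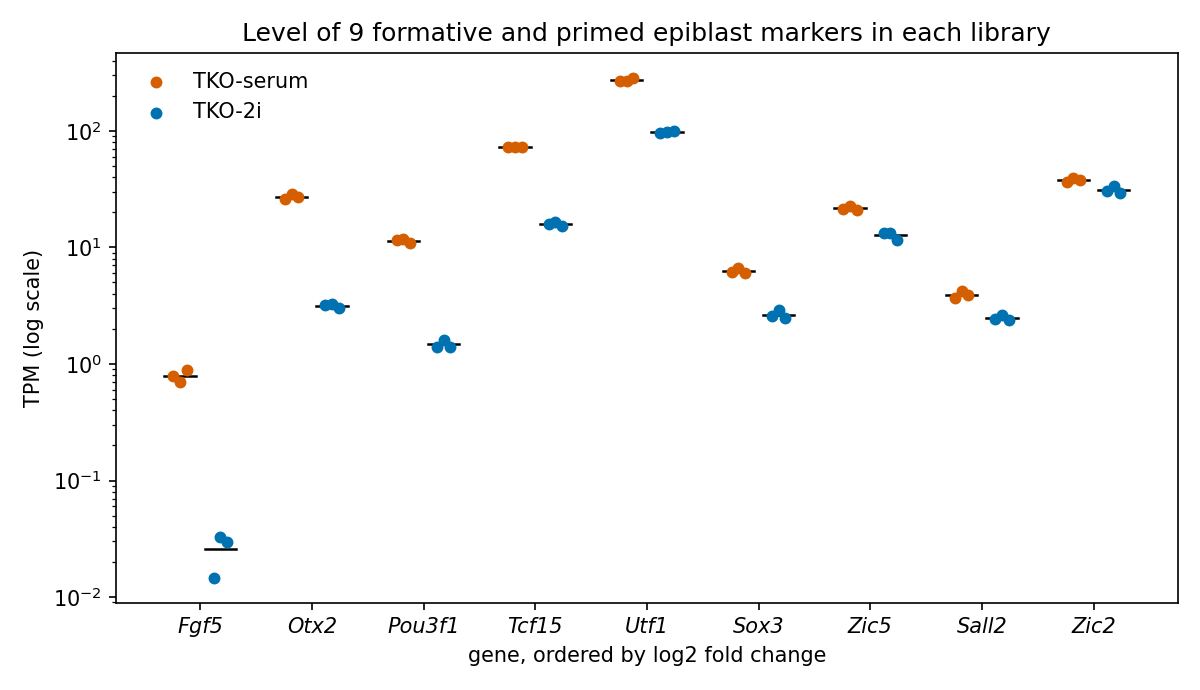
Level of each of the 9 genes in TPM (log axis) in the 3 TKO-serum and 3 TKO-2i libraries, with 1 point per library and a line at the group mean; genes are ordered by log2 fold change. TKO-serum lies above TKO-2i for each gene, from 0.789 against 0.0258 TPM for Fgf5 to 38.1 against 31.1 TPM for Zic2.

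Fgf5 (ENSMUSG00000029337, GRCm38 chr5:98254184-98277030) encodes a secreted fibroblast growth factor that is the usual hallmark of the epiblast after implantation. Its estimated counts were 31, 51 and 57 in TKO-serum and 1, 2 and 2 in TKO-2i. Its TPM was 0.783, 0.694 and 0.891 in TKO-serum and 0.0147, 0.0331 and 0.0298 in TKO-2i. Fgf5 was thus the lowest of the 9 genes in both media, and in TKO-2i it lay under the floor of 3 counts in each library. The pooled counts, 139 against 5, correspond to a level 26.5-fold lower in TKO-2i, with an exact 95% interval of 11.1 to 83.0 that covers counting error only and not the spread between replicates. The fitted log2 fold change was -4.62 (SE 0.38, adjusted p = 1.3e-05, edgeR), from 5 counts in all of TKO-2i. With 1 library left out in turn it lay between -4.79 and -4.38.

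Receptors of this ligand differed in their response. Fgfr1, the main FGF receptor of the epiblast, had 40.4, 46.1 and 36.3 TPM in TKO-2i and 41.1, 44.2 and 41.9 TPM in TKO-serum, which overlap. In CPM it was higher in TKO-2i without overlap, at 124.6, 121.4 and 119.5 against 114.2, 114.5 and 116.7, and it did not pass the test (log2 fold change 0.08, SE 0.05, adjusted p = 0.18, edgeR). Fgfr2, by contrast, had 0.221, 0.291 and 0.155 TPM in TKO-2i and 5.67, 5.09 and 5.29 TPM in TKO-serum, a fall of the same order as that of Fgf5 (log2 fold change -4.67, SE 0.13, adjusted p = 5.7e-08). Fgfr3 and Fgfr4 also fell, with log2 fold changes of -2.48 and -0.71. Fgf4, the FGF that mESCs make themselves, had a mean of 88.1 TPM in TKO-2i and 99.7 TPM in TKO-serum. It did not pass the test (adjusted p = 0.15, edgeR). Of these 5 genes 3 fell and 2 did not pass, beside 30.6% of all tested genes that fell.

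Otx2 (ENSMUSG00000021848, chr14:48657677-48673819) encodes a paired-type homeodomain factor that directs the exit from the naïve state and later specifies the forebrain. It had 26.1, 28.7 and 27.1 TPM in TKO-serum and 3.2, 3.24 and 2.99 TPM in TKO-2i, with means of 27.3 ± 1.32 and 3.15 ± 0.132 (SD, n = 3 each). The replicates of each medium lay close together and the groups far apart, with TKO-2i at 11.5% of the TKO-serum mean. The log2 fold change was -3.01 (SE 0.06, adjusted p = 1.6e-08, edgeR), the largest fall of the 9 genes after Fgf5. Its relative Otx1 went the other way, from a mean of 0.174 TPM in TKO-serum to 0.396 TPM in TKO-2i (log2 fold change 1.28, SE 0.21, adjusted p = 0.00083), at a level far below Otx2 in both media. Crx, also of that family, had at most 0.196 TPM in any library and did not pass the test (adjusted p = 0.24, edgeR).

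Pou3f1 (ENSMUSG00000090125, chr4:124656807-124660655) encodes the POU-domain factor OCT6, which is expressed with OTX2 in the epiblast after implantation and later in Schwann cells. It had 11.6, 11.8 and 10.8 TPM in TKO-serum and 1.41, 1.62 and 1.41 TPM in TKO-2i, with means of 11.4 ± 0.526 and 1.48 ± 0.12 (SD, n = 3 each). Each TKO-2i library held less than any TKO-serum library by a wide margin, and the log2 fold change was -2.77 (SE 0.09, adjusted p = 8.6e-08, edgeR). The other brain-type POU3 genes were low, with Pou3f2, Pou3f3 and Pou3f4 at most 0.389 TPM in any of the 6 libraries, so that Pou3f1 was the leading member of its family in both media. Among these relatives Pou3f3 rose (log2 fold change 0.66, SE 0.19, adjusted p = 0.016), Pou3f2 did not pass the test (adjusted p = 0.12) and Pou3f4 was too low to be tested.

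Tcf15 (ENSMUSG00000068079, chr2:152143561-152149097) encodes a basic helix-loop-helix factor that responds to FGF signalling in mESCs and later acts in somites. It had 73.0 TPM in each of the 3 TKO-serum libraries and 15.9, 16.6 and 15.3 TPM in TKO-2i. The same TKO-serum libraries had 36.0, 32.5 and 33.4 CPM, so the equal TPM values are not a measure of precision. In TPM the TKO-2i mean was 21.8% of the TKO-serum mean, and the log2 fold change was -2.03 (SE 0.08, adjusted p = 2.8e-07, edgeR). This fall is close to the boundary of 2, and without TKO-2i replicate 2 it was -1.95 and without TKO-serum replicate 1 it was -1.98. Its relatives Scx and Tcf21 had at most 0.801 TPM in any library.

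Utf1 (ENSMUSG00000047751, chr7:139943789-139945112) encodes a chromatin-associated factor of undifferentiated embryonic cells whose enhancer is a known target of OCT4 and SOX2. It was the most abundant of the 9 genes, with 7697, 9736 and 9101 estimated counts in TKO-serum and 3585, 2993 and 3544 in TKO-2i. Its TPM had means of 274.5 ± 8.06 in TKO-serum and 98.0 ± 2.23 in TKO-2i (SD, n = 3 each). The groups do not overlap, and the log2 fold change was -1.33 (SE 0.08, adjusted p = 2.7e-06, edgeR). Of the summed TPM of the 9 genes, Utf1 held between 59.0% and 61.1% in TKO-serum and between 57.2% and 60.4% in TKO-2i. The sum itself was 449.0, 457.0 and 464.6 TPM in TKO-serum and 165.0, 172.2 and 165.5 TPM in TKO-2i, so it mainly follows Utf1.

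Sox3 (ENSMUSG00000045179, chrX:60891366-60893430) is an X-linked relative of Sox2 that is expressed in the epiblast and neural plate. Its TPM was 6.19, 6.63 and 6.07 in TKO-serum and 2.57, 2.89 and 2.47 in TKO-2i. TKO-2i libraries were lower throughout, with a log2 fold change of -1.07 (SE 0.1, adjusted p = 2.5e-05, edgeR). Sox2 itself stood at 240.8 TPM in TKO-serum and 162.6 TPM in TKO-2i on average, and the ratio of Sox3 to Sox2 in TPM went from 0.0266, 0.0262 and 0.0256 in TKO-serum to 0.0164, 0.0165 and 0.0158 in TKO-2i. Sox3 therefore fell further than Sox2, whose log2 fold change was -0.41. The remaining SOXB relatives Sox1 (-1.28) and Sox21 (-1.95) fell as well, and Sox14 had at most 0.0748 TPM.

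Zic2 (ENSMUSG00000061524, chr14:122475435-122479852) and Zic5 (ENSMUSG00000041703, chr14:122456795-122465677) are zinc finger genes of the neural plate and epiblast that lie head to head on chromosome 14, with their starts 9.76 kb apart. Zic5 had 21.3, 22.7 and 20.9 TPM in TKO-serum and 13.2, 13.4 and 11.6 TPM in TKO-2i (log2 fold change -0.61, SE 0.05, adjusted p = 1.6e-05, edgeR). Zic2 had 36.4, 39.7 and 38.2 TPM in TKO-serum and 30.6, 33.4 and 29.3 TPM in TKO-2i, the smallest difference of the 9 genes. Its log2 fold change of -0.14 (SE 0.05, adjusted p = 0.036) passed the threshold narrowly, and 40.0% of tested genes had a lower one. Without TKO-2i replicate 2 or 3 the adjusted p of Zic2 was 0.081 or 0.13, and without TKO-serum replicate 1, 2 or 3 it was 0.12, 0.11 or 0.091. The ratio of Zic2 to Zic5 in TPM was 1.71, 1.75 and 1.83 in TKO-serum and 2.31, 2.49 and 2.52 in TKO-2i, so the neighbours did not change in proportion. A two-sided exact permutation of 3 libraries against 3 has 0.1 as its smallest p, so such ratios, which were chosen after their values were seen, are given without a test.

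Sall2 (ENSMUSG00000049532, chr14:52311172-52328762) encodes a Spalt-type zinc finger factor and was the least abundant of the 9 genes after Fgf5 in TKO-serum. It had 3.65, 4.2 and 3.88 TPM in TKO-serum and 2.45, 2.64 and 2.38 TPM in TKO-2i, without overlap. The log2 fold change of the gene was -0.58 (SE 0.07, adjusted p = 9e-05, edgeR). Its relatives Sall1 and Sall4 fell to a like extent (-0.46 and -0.6), while Sall3 rose from a mean of 3.76 TPM to 4.72 TPM (log2 fold change 0.44, SE 0.07, adjusted p = 0.00046).

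In TPM the genes ranked Utf1, Tcf15, Zic2, Otx2, Zic5, Pou3f1, Sox3, Sall2 and Fgf5 in TKO-serum, with means from 274.5 to 0.789, and no neighbours in that order overlapped between libraries. In TKO-2i the order was Utf1, Zic2, Tcf15, Zic5, Otx2, Sox3, Sall2, Pou3f1 and Fgf5, with means from 98.0 to 0.0258. There Sox3 (2.64 TPM) and Sall2 (2.49 TPM) overlapped, and no other neighbours did. Tcf15, Otx2 and Pou3f1 each lost places in the order, as genes that fell more than those around them. Coefficients of variation of TPM between the replicates of a medium lay between 0.051% and 12.5% in TKO-serum and between 2.28% and 38.0% in TKO-2i. The highest value in both was that of Fgf5. The lowest in TKO-serum was that of Tcf15, whose CPM varied by 5.49% there.

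Sall2 differed between the media in its transcripts as well. Sall2-201 and Sall2-202 share their second exon, which starts at position 52315663 on the minus strand of chromosome 14 (GRCm38) in both, and differ in their first, at 52328103 to 52328762 for Sall2-201 and 52316043 to 52316323 for Sall2-202. Both first exons hold a start of translation, so that the coding sequences are 3012 and 3006 bases long. Sall2-201, from the distal first exon, had 127, 160 and 113 estimated counts in TKO-serum and 0 in each TKO-2i library. Between the lowest TKO-serum library and the highest floor of 3 counts per TKO-2i library, in CPM, this is at least 35.1-fold lower in TKO-2i.

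Sall2-202, from the proximal first exon, had 445, 657 and 570 estimated counts in TKO-serum and 469, 424 and 432 in TKO-2i. Per normalized library size these are 11.5, 12.3 and 12.4 CPM in TKO-serum and 10.5, 9.64 and 10.1 CPM in TKO-2i, a smaller difference without overlap between the groups. The share of Sall2-202 in the TPM of its gene was 79.6%, 81.9% and 84.8% in TKO-serum and the whole of it in each TKO-2i library, without overlap (exact two-sided permutation p = 0.1, the smallest that 3 against 3 can give). Of the 4.94 CPM by which Sall2 was lower in TKO-2i, 2.92 CPM (59.2%) were those of Sall2-201. Reads in the shared second exon are divided between both transcripts by the quantifier's model, so these counts are estimates.

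**Figure D2:**
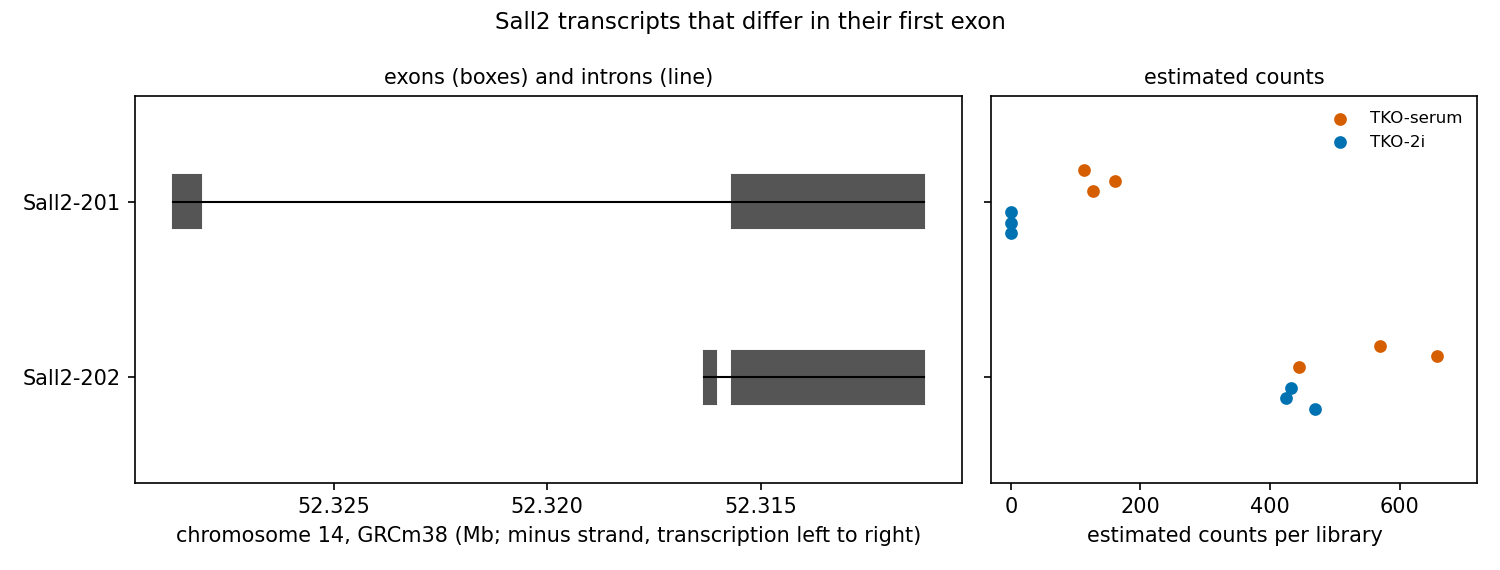
Left, exons (boxes) and introns (line) of Sall2-201 and Sall2-202 on chromosome 14 of GRCm38 in Mb, with the axis reversed so that transcription runs from left to right. Right, estimated counts of each transcript, 1 point per library: Sall2-201 has 113 to 160 counts in TKO-serum and 0 in all 3 TKO-2i libraries, while Sall2-202 has at least 424 in all 6.

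The promoter windows of both Sall2 first exons are shown because the transcripts that start there behaved differently. They are RefSeq windows of build GRCm38.p6, from 250 bases before to 50 bases after the start, printed 5′ to 3′ on the minus strand, with capitals for matches to TATAAA or CCAAT on either strand. The distal window lies at chr14:52328621-52328920, and its RefSeq start is 92 bases from that of Sall2-201. It holds 1 CpG and 30.3% G and C, and TATAAA and CCAAT each once. The proximal window lies at chr14:52316274-52316573, has the start of Sall2-202 as its start and holds 10 CpGs and 65.0% G and C, with no match to either motif. Over all 32851 promoter windows the median number of CpGs was 7, with quartiles of 3 and 20, and TATAAA was found in 13.6% and CCAAT in 37.4%.
Sall2 distal promoter: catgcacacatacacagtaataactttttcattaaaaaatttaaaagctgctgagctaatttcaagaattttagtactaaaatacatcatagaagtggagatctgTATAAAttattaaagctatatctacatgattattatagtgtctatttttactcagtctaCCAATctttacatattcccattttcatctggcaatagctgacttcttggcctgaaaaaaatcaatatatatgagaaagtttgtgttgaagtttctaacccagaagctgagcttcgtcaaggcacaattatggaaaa
Sall2 proximal promoter: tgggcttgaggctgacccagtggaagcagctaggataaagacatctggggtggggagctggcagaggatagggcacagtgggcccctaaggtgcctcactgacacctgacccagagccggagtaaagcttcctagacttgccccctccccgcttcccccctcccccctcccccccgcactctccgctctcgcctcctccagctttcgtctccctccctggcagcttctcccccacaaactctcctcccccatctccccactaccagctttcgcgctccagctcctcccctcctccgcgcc

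Otx2 likewise has several first exons, and each of its 3 main transcripts had fewer estimated counts in every TKO-2i library than in any TKO-serum library. Levels of single transcripts were not tested. Otx2-201, which starts at 48665106 on the minus strand of chromosome 14, had 770, 1133 and 759 estimated counts in TKO-serum and 104, 124 and 85.9 in TKO-2i. Otx2-204, which starts at 48662872, had 471, 613 and 634 in TKO-serum and 78.4, 30.7 and 68.8 in TKO-2i. The share of Otx2-201 in the TPM of the gene was 53.1%, 54.8% and 44.4% in TKO-serum and 48.4%, 62.3% and 43.6% in TKO-2i, and these ranges overlap (exact two-sided permutation p = 1.0). Otx2-202, which starts furthest upstream of these 3, at 48667513, held a mean of 8.31% in TKO-serum and 10.7% in TKO-2i. Zic5-201 held 90.2% of the TPM of Zic5 in TKO-serum and 91.2% in TKO-2i, again with overlap (p = 0.8 by the same exact test). With 3 libraries a group, none of these tests of shares could have reached 0.05, so they are read as values. Fgf5-202 took 38.6% of the TPM of Fgf5 in TKO-serum replicate 1, from 4.08 estimated counts, and 0 in the other libraries. Zic2, Pou3f1, Sox3, Tcf15 and Utf1 each had 1 transcript with at least 5% of their TPM.

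RefSeq promoter windows were found for 5 of the 9 genes (Fgf5, Utf1, Otx2, Sall2 and Zic5), 9 windows in all. The window of the main Otx2 start, at chr14:48665060-48665359 on the minus strand, is shown because this start carried the largest part of the Otx2 fall, and that of Fgf5, at chr5:98253934-98254233 on the plus strand, because Fgf5 fell most. Capitals mark the homeodomain core TAATCC (on the other strand, found in 7.06% of all windows) in Otx2 and TATAAA in Fgf5, where it lies 34 bases after the start. The letters ATGCAAAT (POU octamer), CTTTGAT (TCF/LEF core) and CCGGAAGT (ETS site) were in 1.74%, 3.73% and 3.89% of all windows and in none of the 9, which says only that these letters are not in these windows.
Otx2 promoter: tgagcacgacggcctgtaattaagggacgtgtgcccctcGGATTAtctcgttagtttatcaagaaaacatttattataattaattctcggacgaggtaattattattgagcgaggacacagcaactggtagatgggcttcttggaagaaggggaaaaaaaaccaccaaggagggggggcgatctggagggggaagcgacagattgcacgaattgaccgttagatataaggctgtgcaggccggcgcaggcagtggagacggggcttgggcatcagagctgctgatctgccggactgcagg
Fgf5 promoter: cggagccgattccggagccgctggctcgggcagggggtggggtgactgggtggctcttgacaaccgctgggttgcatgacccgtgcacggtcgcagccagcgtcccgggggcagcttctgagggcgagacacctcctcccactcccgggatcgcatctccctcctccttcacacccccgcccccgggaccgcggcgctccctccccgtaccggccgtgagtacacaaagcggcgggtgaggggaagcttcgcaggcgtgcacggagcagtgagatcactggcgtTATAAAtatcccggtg

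The Fgf5 window holds 29 CpGs, and 12.9% of all windows hold as many or more. The windows of the other genes hold 17 (Utf1), 15 (Zic5) and, for the 4 Otx2 starts, 16, 11, 8 and 6. Among the 9 windows the distal Sall2 window, with 1, thus had the fewest.

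Apart from Zic2 and Zic5, which are neighbours of each other, the genes that overlap the 9 genes or start within 10 kb of them were few and had at most 103 counts in any library. Gm16201, on the same strand as Utf1 with its start 6.61 kb away, had 80, 103 and 78 estimated counts in TKO-serum and 3, 1 and 1 in TKO-2i, at or under the floor there. Pooled, these are 49.8-fold lower in TKO-2i, with an exact 95% counting interval of 21.1 to 155.0, and the fitted log2 fold change was -5.54 (SE 0.32, adjusted p = 1.8e-06, edgeR). 2610035F20Rik, which lies between Zic5 and Zic2 and starts 0.236 kb from Zic2 on the opposite strand, had 18, 24 and 13 counts in TKO-serum and 10, 8 and 9 in TKO-2i (log2 fold change -0.95, SE 0.31, adjusted p = 0.026, edgeR). Both were lower in each TKO-2i library than in any of TKO-serum. Otx2os1, on the strand opposite to Otx2 and overlapping it by 5112 bases, had 3, 11 and 6 counts in TKO-serum and 0 in each TKO-2i library, and Gm2164, opposite to Pou3f1, had 10, 10 and 12 in TKO-serum and 1, 2 and 3 in TKO-2i. Gm14662, which starts 0.223 kb from Sox3 on the opposite strand, had 6, 3 and 7 in TKO-serum and 0, 1 and 0 in TKO-2i. These 3 were too low to be tested, as was Gm49154, which overlaps Otx2 on the same strand and had 1 count in 1 TKO-2i library. The library kit keeps the strand, but whether counting used it is not given in the sources used here, so reads of overlapping genes may be divided wrongly.

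Of the 9 genes, Otx2, Zic2, Zic5 and Sall2 lie on chromosome 14, whose 656 tested genes had a median log2 fold change of -0.15. On that chromosome 40.4% of tested genes fell, against 30.6% over all chromosomes. The chromosomes of Fgf5, Utf1, Tcf15, Pou3f1 and Sox3 had medians between -0.07 (X) and 0.04 (chromosome 4). Otx2, Zic5 and Sall2 had lower log2 fold changes than the median of chromosome 14.

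The genes with the most similar profiles over the 6 libraries were found by the distance between centred log2 CPM values, among tested genes with a mean of at least 1 CPM. For Otx2 these were Col4a1, a basement membrane collagen (distance 0.113), Cpne8 (0.122) and the ERK phosphatase gene Dusp6 (0.139). For Pou3f1 they were Phf19, Fkbp10 and Chrna9 (0.168 to 0.177), for Tcf15 Stmn2, Gm13241 and Dbn1 (0.114 to 0.134), and for Utf1 Ccn2, Stmn1 and Arhgap8 (0.0905 to 0.113). The small falls of Zic5 and Sall2 had close matches in Sinhcaf, Zfp473 and Arhgap27 (0.0671 to 0.07) and in Ggct, Jun and 2310022B05Rik (0.053 to 0.0712), and that of Zic2 in Zfyve1, Atp6v1b2 and Nup133 (0.043 to 0.0485). Sox3 was nearest to Pnma2, Kcnk1 and 2810429I04Rik (0.101 to 0.115). For Fgf5 the nearest of the genes searched were Gm14149, Pdzd2 and Crybg1, further off at 0.406 to 0.469. The mean of Fgf5 itself lies under the limit of 1 CPM, and its TKO-2i values rest on 1, 2 and 2 counts. Genes with as low a mean were left out of the search, so whether Fgf5 has a near match was not tested. Since 2 groups of 3 libraries dominate such profiles, a short distance mostly reflects a log2 fold change of the same size.

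Of 18 other genes known from the formative and primed epiblast, 14 fell in TKO-2i, 3 rose and 1 did not pass. Their median log2 fold change was -1.37, beside -1.33 for the markers above. Dnmt3l, the cofactor of the de novo methyltransferases, had 486.0, 506.1 and 503.6 TPM in TKO-serum and 45.2, 46.5 and 49.2 TPM in TKO-2i (log2 fold change -3.31, SE 0.07, adjusted p = 1.7e-08, edgeR). Sox4 (-3.59), Fgf15 (-3.5) and the tight junction gene Cldn6 (-3.29) fell more than Otx2 (-3.01). Tead2, Sall3 and Cdh2 rose instead, by 0.93, 0.44 and 0.31, so a marker of this list is not lower in 2i by its name alone. Lefty2, at a mean of 231.0 TPM in TKO-serum and 203.3 TPM in TKO-2i, did not pass (adjusted p = 0.64), and its activator Nodal differed about as little as Zic2 (-0.19, adjusted p = 0.035).

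**Figure D3:**
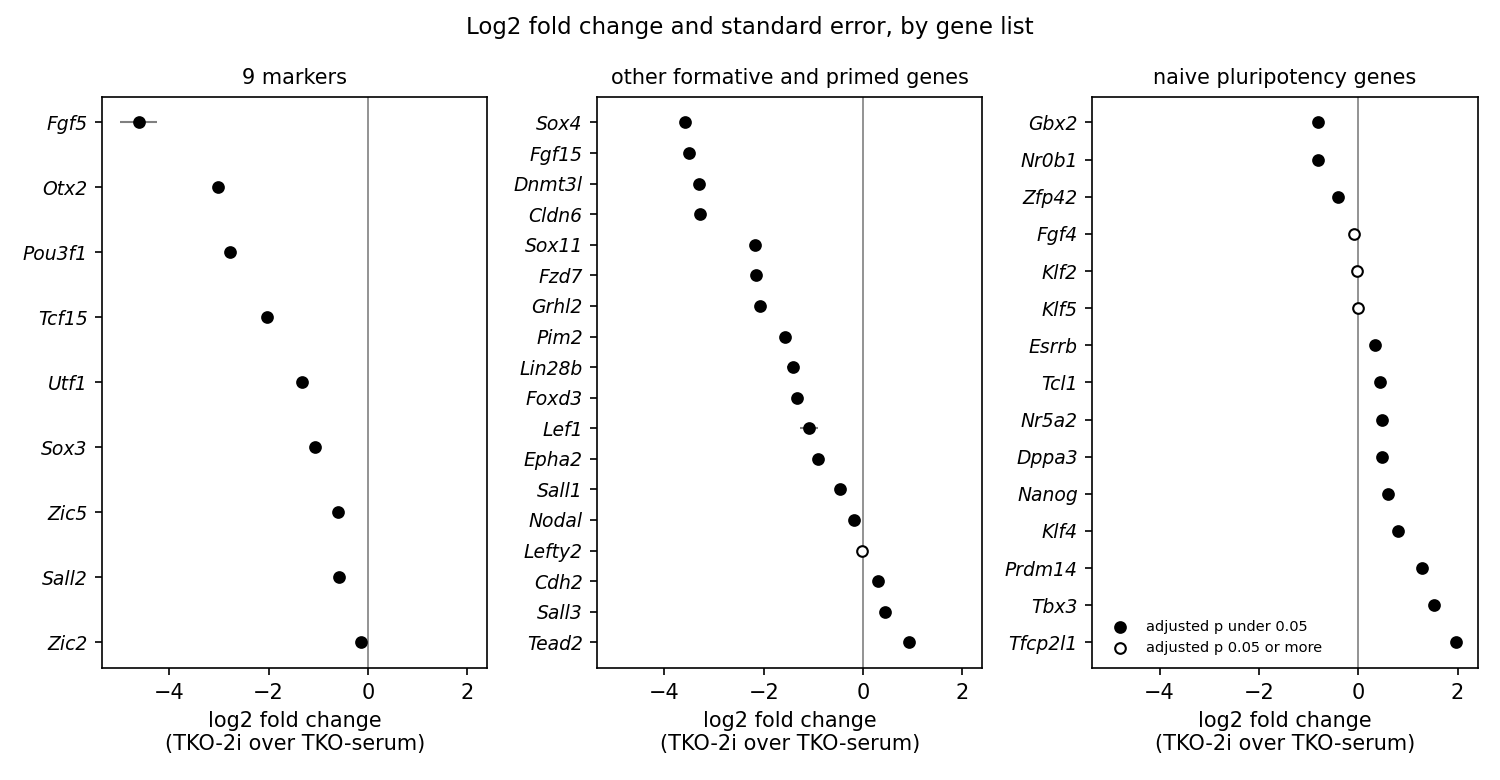
Log2 fold change of TKO-2i over TKO-serum with its standard error (bars) for the 9 genes, 18 other formative and primed genes and 15 naïve pluripotency genes, with filled points for an adjusted p under 0.05. The 9 genes lie below 0, and of the genes that passed, 14 of the 18 lie below and 3 above, and 9 of the 15 naïve genes lie above and 3 below.

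Of 15 naïve pluripotency genes, 9 rose, 3 fell and 3 did not pass, with a median log2 fold change of 0.43. Beside these counts, 31.9% of all tested genes rose and 30.6% fell. Prdm14, a repressor of Dnmt3b and of FGF signalling, rose from 10.7, 12.8 and 12.8 TPM in TKO-serum to 26.9, 30.7 and 25.3 TPM in TKO-2i (log2 fold change 1.28, SE 0.06, adjusted p = 7.6e-07, edgeR). Gbx2, Nr0b1 and Zfp42 fell by 0.81, 0.8 and 0.4 on the log2 scale. The lowest value of the naïve list (-0.81) lay above those of Fgf5, Otx2, Pou3f1, Tcf15, Utf1 and Sox3. Of 6 core pluripotency genes 5 fell, led by Lin28a (-1.66), and Pou5f1 did not pass (adjusted p = 0.093). The ratio of Utf1 to Pou5f1 in TPM went from 0.216, 0.216 and 0.227 in TKO-serum to 0.0904, 0.1 and 0.0989 in TKO-2i, so Utf1 fell against that gene too.

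Targets of the 2 pathways that the inhibitors act on were set beside the 9 genes. The shares over all tested genes were 30.6% that fell and 31.9% that rose. Of 10 ERK targets, 9 fell and 1 (Etv4) rose, and their median was -1.48 on the log2 scale. The largest falls, of the ERK phosphatase genes Dusp4 (-3.23) and Dusp6 (-2.92), were about the size of those of Otx2 and Pou3f1. The smallest were those of Spry2 (-0.21), Spred1 (-0.43) and Etv5 (-0.45), so the list did not fall to a common extent. Of 10 β-catenin targets, 7 rose, Lef1 fell and 2 did not pass, and the median was 0.65. Axin2 rose from a mean of 4.39 TPM to 45.4 TPM (log2 fold change 3.37, SE 0.09, adjusted p = 3.6e-08, edgeR). Whether either pathway acts on the 9 genes was not tested.

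Several of the 9 genes are also used as neural markers, so marker lists of other cell types were read in the same libraries. For comparison with the counts of each such list, 30.6% of all tested genes fell and 31.9% rose. Of 7 tested neural markers 6 fell and 1 rose, with Pax6 at a mean of 11.9 TPM in TKO-serum and 1.94 TPM in TKO-2i, and Hes5, Fabp7 and Dcx, which were not tested, at most 0.466 TPM. The summed TPM of the 10 neural markers was 142.3, 146.2 and 141.3 in TKO-serum and 92.6, 93.3 and 89.5 in TKO-2i, mostly from Tubb3. Their summed level thus fell with the 9 genes, while Nes rose.

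Of 8 tested visceral and parietal endoderm markers 6 fell, 1 rose and 1 did not pass, and the 10 listed summed to 18.4, 21.3 and 23.6 TPM in TKO-serum, with Dab2 the most abundant, and to 7.65, 9.77 and 8.12 TPM in TKO-2i, with Hnf4a the most abundant. The differentiated endoderm markers Ttr and Afp had at most 0.192 TPM in any library, and Ttr had 0 counts in all TKO-2i libraries. Primitive streak markers went the other way as a sum, from 4.55, 5.23 and 5.08 TPM in TKO-serum to 22.8, 23.6 and 27.9 TPM in TKO-2i, with 3 of 7 tested markers higher, 1 (Foxa2) lower, and T the most abundant in TKO-2i and Evx1 in TKO-serum. Of 8 trophoblast markers 4 fell, 3 rose and 1 did not pass, and they summed to 41.9, 41.2 and 39.2 TPM in TKO-serum and 44.1, 43.1 and 40.6 TPM in TKO-2i, with Tfap2c the most abundant in both. In CPM the trophoblast sums were 64.5, 60.2 and 58.4 in TKO-serum and 81.3, 69.3 and 74.2 in TKO-2i, higher without overlap, where the TPM sums overlap. Of 6 tested fibroblast markers 3 fell, 1 rose and 2 did not pass. The 8 listed summed to 12.7, 14.2 and 13.4 TPM in TKO-serum, led by Twist1, and 8.55, 9.42 and 7.96 TPM in TKO-2i, led by Thy1, and Col3a1 and Postn had at most 0.14 TPM. In CPM the fibroblast sums of the media overlap (18.0 to 19.3 in TKO-serum, with TKO-2i libraries both above and below), so their difference holds in TPM and not in CPM. Some genes stand in more than 1 list, such as Sox1 (neural and Sox family), T (streak and β-catenin) and Cdx2 (trophoblast and β-catenin). The part of these cell types in the falls of the 9 genes was not tested.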

How the data were processed

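RNA-seq of 3 TKO-2i and 3 TKO-serum libraries was analysed. For each library the authors deposited estimated counts and TPM per transcript, with no name given for the quantifier in the sources used here, and the submitters' processing notes name mm10. The deposited estimated counts are not normalized, and reads shared by transcripts are divided between them; the TPM deposited by the authors are scaled for length and to a fixed sum. Transcripts (99.86% matched) were assigned to genes of GENCODE M21 (GRCm38), and 0.0473% to 0.0643% of the counts of a library were left unmatched. Rounded gene sums passed filterByExpr and TMM normalization and were tested with glmQLFit and glmQLFTest in edgeR 4.0.16 (R 4.3.3), with the condition as the only factor. The SE is the absolute log2 fold change divided by the square root of F. Replicates differed by more than counting noise (chi-square per gene of at least 4.71), which does not show separate cultures, and p-values measure the spread between these samples. Shares of transcripts were compared by exact permutation (scipy).

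The alternatives were DESeq2 1.42.0, its size factors in edgeR, no filter, at least 10 counts in every library, length-scaled TPM counts, limma 3.58.1 on log2(TPM + 1) and log2(TPM + 0.1), a replicate block and each library left out in turn. The edgeR fit was tested on simulated counts of the comparison of TKO-2i with TKO-serum. Far fewer genes were changed in that simulation than passed the threshold in these data, so it does not cover so wide a change. The 9 genes and the lists were chosen with earlier results of these data known. Named beside them are genes of the lists, the 3 genes nearest in profile to each, transcripts with at least 5% of a gene's TPM, and genes that overlap or start within 10 kb. The Sall2 transcripts, the ratios between genes and the printed promoters were singled out after their values were seen.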

Additional observations from a re-analysis of the deposited data

How the results depend on the processing

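All 125 log2 fold changes of the 9 genes under the 14 alternatives kept their direction, and 119 kept their side of the threshold. The other 6 were those of Zic2, whose adjusted p was 0.085 with no filter on low counts (log2 fold change -0.15) and 0.081 to 0.13 with a library other than TKO-2i replicate 1 left out (log2 fold change -0.15 to -0.11); over all alternatives the adjusted p lay between 0.0061 and 0.13 and the log2 fold change between -0.29, on both log2 TPM scales, and -0.11. The cause was not tested. Fgf5 had no value with at least 10 counts in every library, and on log2(TPM + 1), a scale that understates low genes, its log2 fold change was -0.8, and -2.82 on log2(TPM + 0.1). The genes past a log2 fold change of 2 were 3 or 4, other formative and primed genes that fell 13 to 15, and naïve genes that rose 9 throughout. The share of Zic5-201 was 97.9% of the estimated counts in TKO-2i and 97.6% in TKO-serum, in place of 91.2% and 90.2% of TPM, since Zic5-202 is short.

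With the replicate number as a block, 12539 of all tested genes passed in place of 11361, and all 9 genes stayed lower. Deviations of same-numbered libraries from their group means correlated at 0.242, 0.329 and 0.014 across genes, and 5 of 6 libraries were nearest to their own number, a hint from the data and not from the design. Low counts limit Fgf5 in TKO-2i, the antisense neighbours and the split between transcripts.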
